A study of Homo sapiens with 12 samples.

Results

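The Wnt ligands, receptors and modulators described here are 55 of the 60624 genes in the deposited count tables. They were chosen by a rule on gene symbols that uses no measured value: the WNT ligands, the Frizzled receptors (FZD), the secreted Frizzled-related proteins (SFRP), the Dickkopf proteins DKK1 to DKK4, the R-spondins (RSPO) with their receptors LGR4, LGR5 and LGR6, AXIN1 and AXIN2, the TCF/LEF transcription factors, NKD1, NKD2, NOTUM, ZNRF3 and RNF43. The choice of this set was made with earlier results of these data known. By role the members are 19 ligands, 10 Frizzled receptors, 9 genes of the R-spondin arm, 9 secreted antagonists, 4 intracellular inhibitors and 4 nuclear factors.

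Bulk RNA-seq had been done on islet-like cells that came from pancreatic progenitors of an expandable kind (ePP) of MEL1, a human embryonic stem cell line. The progenitors had been kept on feeder cells and the derived cells were collected on day 8 in the medium R6. That medium holds, for all groups alike, the compound 616452, thyroid hormone T3, the BMP receptor inhibitor LDN-193189, the gamma-secretase inhibitor Compound E, zinc sulfate, heparin, vitamin C and forskolin. The 4 groups of 3 libraries are a wild type (WT) and a knockout (KO) titled N2 and a WT and a KO titled C16. The deposited data name these experiments after NKX2-2 and CLEC16A. NKX2-2 encodes a homeodomain protein needed to form islet cells, and CLEC16A a regulator of mitophagy. The kind of edit and the number of clones are not given in the labels, so a difference between clones cannot be told apart from an effect of the knockout. Nor do the labels say that replicates came from separate cultures. The spread behind every p-value is therefore that of these libraries and may be technical.

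Wnt proteins are secreted lipid-modified ligands that bind Frizzled receptors. With the co-receptors LRP5 and LRP6, the canonical branch stops the destruction complex, built on AXIN1 or AXIN2, from degrading beta-catenin, which then acts with TCF/LEF factors on target genes such as AXIN2 itself. Other ligands, WNT5A and WNT11 among them, are best known for branches that do not need beta-catenin. R-spondins bind LGR receptors and remove the ubiquitin ligases RNF43 and ZNRF3, which otherwise clear Frizzled from the cell surface. In the embryo, Wnt signals between mesenchyme and epithelium help pattern the gut tube and the pancreas.

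Library totals ran from 16157481 to 20649976 counts in the NKX2-2 experiment and from 31364272 to 33763795 counts in the CLEC16A experiment. CPM are read counts relative to the TMM-adjusted total of each library, and TPM are the authors' transcript abundances per length. The NKX2-2 transcript was at 95.4, 96.7 and 93.4 CPM in the WT libraries and at 91.9, 68.03 and 68.3 CPM in the KO libraries of its experiment (adjusted p = 0.0610). CLEC16A was at 36.2, 30.1 and 30.8 CPM in its WT libraries and at 35.4, 38.04 and 36.8 CPM in its KO libraries (adjusted p = 0.0949). The 3 NKX2-2 KO libraries were lower than their WT libraries and the CLEC16A groups overlapped, but neither passed the threshold of 0.05. In TPM, NKX2-2 was at 57.4 ± 3.17 in the WT and 34.6 ± 8.76 in the KO libraries (SD, n = 3). NKX2-2 also fell in the CLEC16A experiment, where it is not the gene named in the title (log2 change -0.93 ± 0.07 SE, adjusted p = 3.53e-10). These levels are no check of the labels, and "KO" below means a library labelled so. The experiments' tables were made differently: listed TPM values reach 41.5% to 47.2% of their full total per NKX2-2 library, while those of each CLEC16A library reach 99.7% to 99.8%. Of the counts between 1 and 20, even numbers were 41.9% to 43.2% per NKX2-2 library, against 59.3% to 63.9% per CLEC16A library, and the cause was not tested. Levels are therefore set side by side only within an experiment.

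Tested with edgeR, 25 of 40 tested Wnt genes changed in the NKX2-2 KO, 15 higher and 10 lower. That is 62.5% of those tested, where 33.4% of all 17436 tested genes were called, 16.6% higher and 16.8% lower. In the CLEC16A KO 30 of 40 changed, 13 higher and 17 lower. That is 75.0%, where 45.0% of all 19958 tested genes were called, 23.7% higher and 21.3% lower. The median log2 fold change (KO minus WT, called log2 change below) of the tested members was 0.17 in the NKX2-2 experiment, where that of all tested genes was 0.03. It was -0.22 in the CLEC16A experiment, where that of all tested genes was -0.01. In the NKX2-2 experiment 10 members, 25.0% of those tested, were called with a change of at least 2-fold, where 12.8% of all tested genes were. For the CLEC16A experiment it was 12 members, 30.0%, where it was 13.9% of all tested genes. For all 25 and all 30 called members, the WT and KO libraries did not overlap in CPM. Groups did not overlap for 45.5% and 53.8% of all tested genes and for 96.6% and 97.0% of all called genes, so it says nothing particular about the members.

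**Figure D1:**
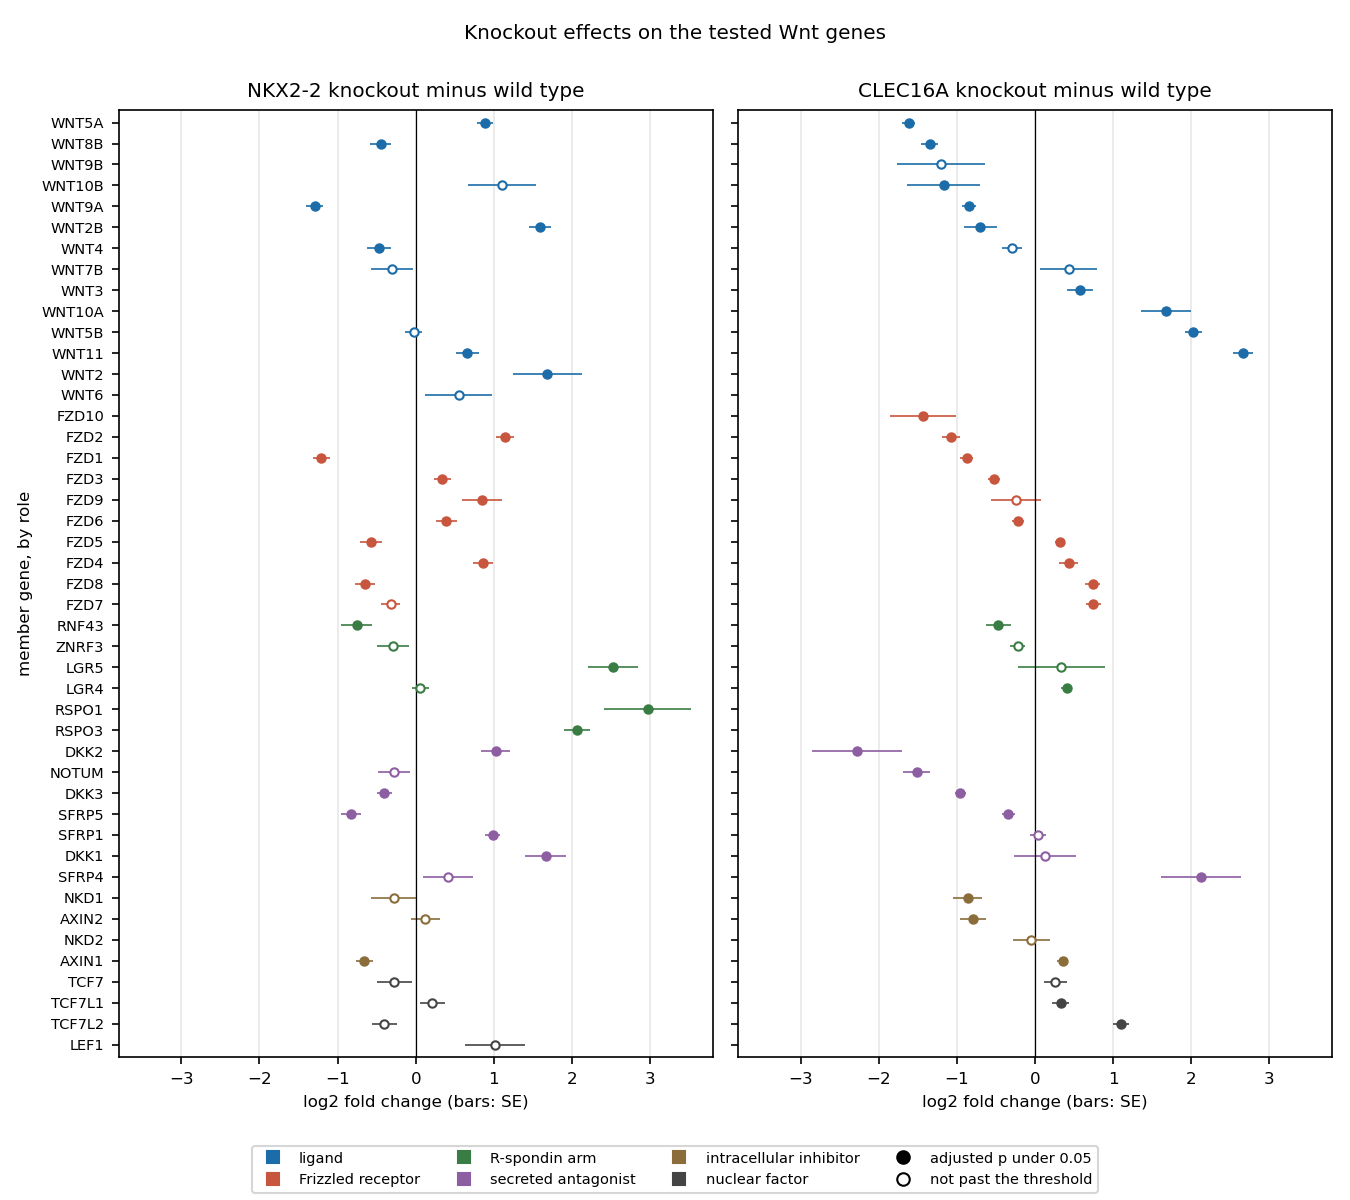
Log2 fold change (KO minus WT, x axis; bars are the SE) of the Wnt genes tested in at least 1 experiment, by role, in the NKX2-2 (left) and the CLEC16A experiment (right). Filled points passed an adjusted p of 0.05, open points did not, and an empty line marks a gene too low to be tested there; WNT11 stands farthest to the right among the CLEC16A effects, at 2.66, and RSPO1 among the NKX2-2 effects, at 2.97.

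Members below the count filter were 15 in each experiment, and 10 of them were the same genes: WNT1, WNT3A, WNT7A, WNT8A, WNT16, LGR6, RSPO2, RSPO4, DKK4 and SFRP2. WNT3A, WNT8A, WNT9B and SFRP2 had 0 counts in all 6 NKX2-2 libraries, which allows a level of up to 0.0267 CPM over those libraries (3 counts of their total, for counting error only). WNT9B, however, had 0.00783 to 0.0467 TPM in these libraries. Its counts and TPM do not match, so that limit does not apply to it. No member was at 0 in all 6 CLEC16A libraries. Per length, the most abundant member of each role was the same gene in both experiments for 5 of the 6 roles: FZD5, LGR4, AXIN1, TCF7L2 and DKK3. Among the ligands it was WNT11 in the NKX2-2 experiment, at 9.91 ± 0.703 TPM in the WT and 15.7 ± 1.80 TPM in the KO libraries (SD, n = 3). In the CLEC16A experiment it was WNT5B, at 13.4 ± 1.03 TPM in the WT and 53.6 ± 2.30 TPM in the KO libraries. That rank is over both groups. In the CLEC16A WT libraries alone, WNT9A stood above WNT5B, at 35.5 ± 0.709 TPM. In the NKX2-2 WT libraries alone, WNT5B (13.15 ± 0.925 TPM) and WNT9A (10.2 ± 0.638 TPM) stood above WNT11. With 12.3 ± 0.911 TPM in the NKX2-2 KO libraries, WNT5B was close to WNT11 over both groups. DKK3 was the most abundant of all members in the NKX2-2 WT libraries, at 31.8 ± 0.679 TPM, and in the CLEC16A WT libraries, at 98.9 ± 2.35 TPM.

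**Figure D2:**
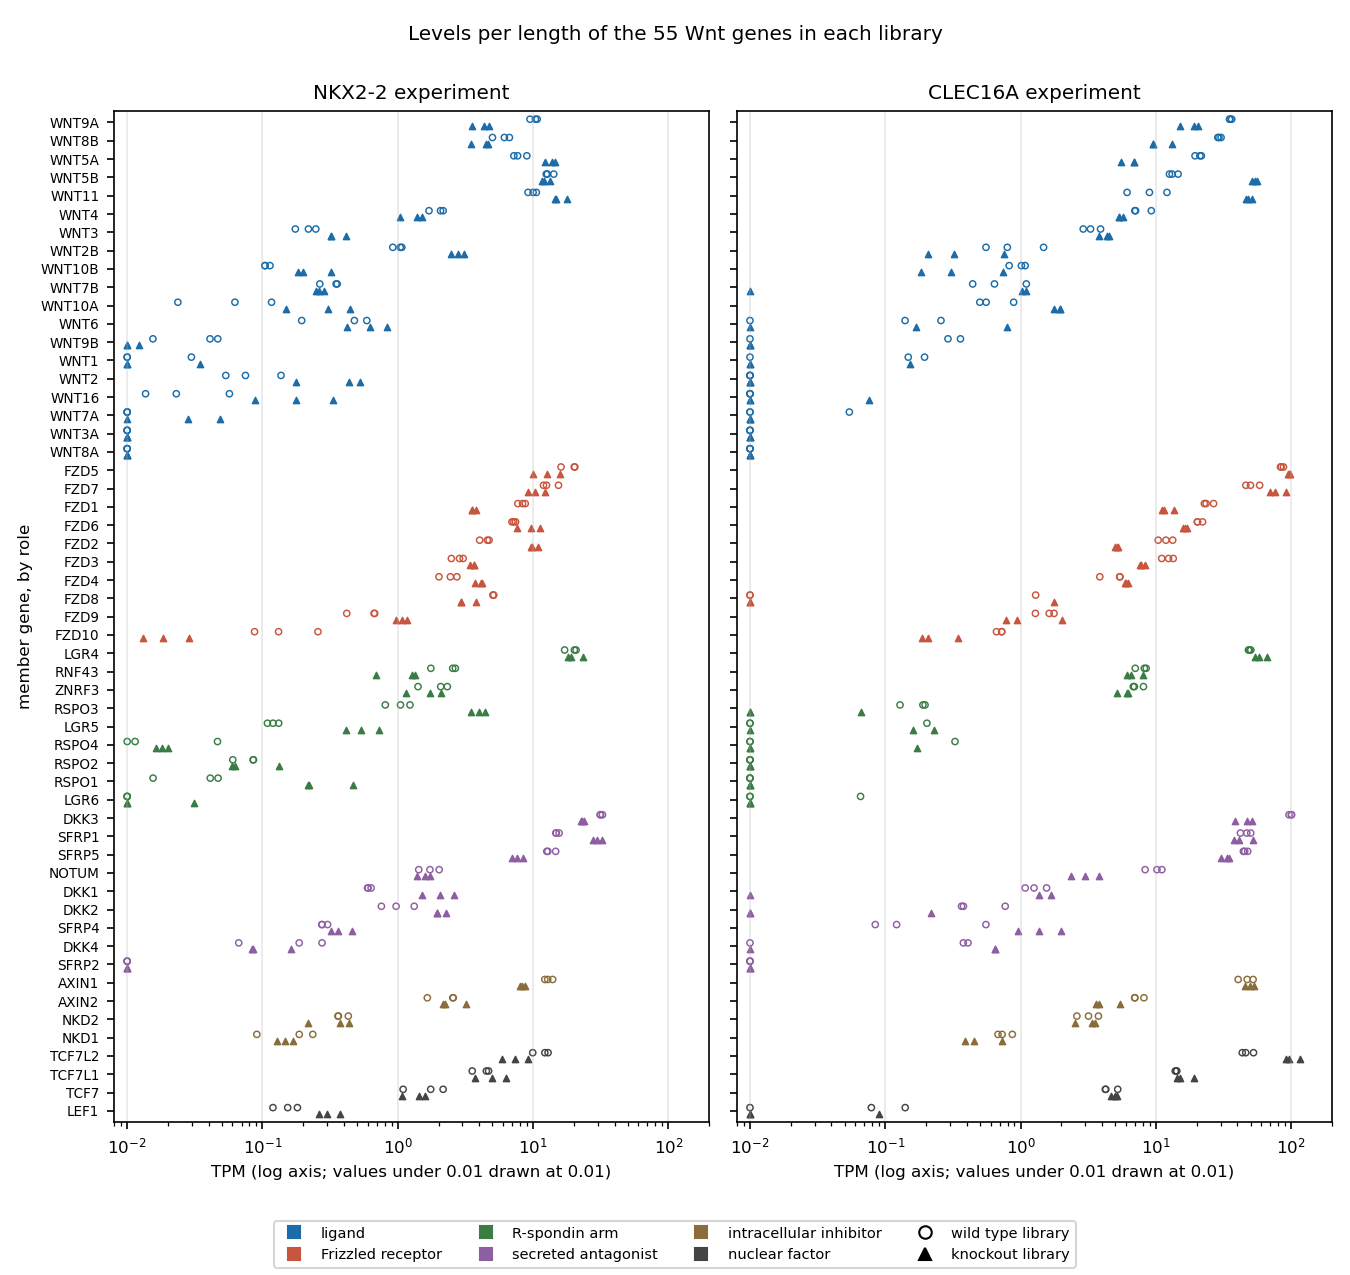
TPM (x axis, log scale) of the 55 Wnt genes, by role, in every library of the NKX2-2 (left) and the CLEC16A experiment (right). Open circles are WT and filled triangles KO libraries. DKK3, FZD5, LGR4 and SFRP1 lie toward the right in both panels. The axis of one panel does not compare with the other because the tables were scaled separately.

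Among the ligands, 4 of 11 tested rose and 3 fell in the NKX2-2 KO, and 4 of 12 rose and 5 fell in the CLEC16A KO. Of all tested genes, 16.6% rose and 16.8% fell in the NKX2-2 KO, and 23.7% rose and 21.3% fell in the CLEC16A KO. The counts of every role below stand against these shares. Among the tested ligands, the largest effects were on WNT2, WNT2B and WNT9A in the NKX2-2 KO, and on WNT11, WNT5B, WNT10A and WNT5A in the CLEC16A KO. WNT5A and WNT2B changed in opposite directions.

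WNT5A (chr3:55465715-55490539 in GRCh38, minus strand) encodes the best-studied ligand of the branches that do not need beta-catenin. Within the NKX2-2 experiment it stood at 60.6, 55.8 and 50.97 CPM in the WT libraries and at 104, 105 and 100.5 CPM in the KO libraries. All 3 KO libraries were higher, by 0.88 ± 0.10 (SE, adjusted p = 2.34e-05) on the log2 scale. Within the CLEC16A experiment it stood at 56.04, 56.9 and 55.2 CPM in the WT and at 17.8, 20.1 and 16.9 CPM in the KO libraries. Here all 3 KO libraries were lower, with a log2 change of -1.62 ± 0.09 (SE, adjusted p = 6.17e-13). The difference between the effects, NKX2-2 minus CLEC16A, was 2.51 ± 0.13 (SE, adjusted p = 1.20e-12).

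WNT5B (chr12:1529891-1647243, plus strand), the paralog of WNT5A, passed the test in the CLEC16A experiment and not in the NKX2-2 experiment. It was at 9.55, 11.6 and 8.56 CPM in the WT and at 39.2, 41.4 and 40.6 CPM in the KO libraries there. The rise was 4.08-fold, a log2 change of 2.03 ± 0.11 (SE, adjusted p = 5.04e-13), in every KO library. In the NKX2-2 libraries the WT libraries had 28.4, 33.3 and 32.3 CPM and the KO libraries 32.2, 30.6 and 29.5 CPM, and the groups overlapped (log2 change -0.03 ± 0.11 SE, adjusted p = 0.875). The effects differed by -2.04 ± 0.16 (SE, adjusted p = 6.33e-10). Thus, in the CLEC16A experiment, the WNT5 paralogs exchanged places: WNT5A had the higher TPM in the WT libraries (20.8 against 13.4) and WNT5B in the KO libraries (53.6 against 6.43).

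WNT11 (chr11:76186325-76210736, minus strand), a ligand of convergent extension movements in the embryo, rose in both experiments. In the CLEC16A libraries it went from 4.56, 5.76 and 4.19 CPM in the WT libraries to 27.5, 34.1 and 30.1 CPM in the KO libraries. This 6.32-fold rise was the largest of any tested member in that experiment by log2 fold change, at 2.66 ± 0.13 (SE, adjusted p = 1.83e-13). In the NKX2-2 experiment it went from 13.3, 17.3 and 15.6 CPM to 21.4, 22.4 and 29.2 CPM. The rise there was smaller, a log2 change of 0.66 ± 0.15 (SE, adjusted p = 0.00410), and the difference between the effects was -1.99 ± 0.21 (SE, adjusted p = 7.44e-08).

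WNT2B (chr1:112466541-112530165, plus strand) encodes a ligand made by mesenchyme beside many embryonic epithelia. Its promoter is shown because the gene moved in opposite directions and the window holds 1 match to an NKX2 binding word: the RefSeq 150 bases before the transcription start, chr1:112466391-112466540 in GRCh38.p14 on the plus strand, with the match in capitals.

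WNT2B: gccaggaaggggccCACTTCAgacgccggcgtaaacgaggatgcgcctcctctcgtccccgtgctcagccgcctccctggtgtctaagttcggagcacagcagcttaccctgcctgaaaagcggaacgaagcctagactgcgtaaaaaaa

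The match lies 136 bases before the start, on the minus strand of the gene. Within the NKX2-2 experiment WNT2B was at 11.2, 10.9 and 8.69 CPM in the WT and at 29.3, 34.5 and 29.1 CPM in the KO libraries. All KO libraries were above all WT libraries, by 3.02-fold (log2 change 1.59 ± 0.14 SE, adjusted p = 1.71e-06). In the CLEC16A experiment it was at 3.93, 3.47 and 3.34 CPM in the WT and at 2.13, 2.42 and 2.05 CPM in the KO libraries. It fell there, with a log2 change of -0.70 ± 0.21 (SE, adjusted p = 0.0103), a call that was lost without WT replicate 1 (adjusted p = 0.0530). The effects differed by 2.30 ± 0.21 (SE, adjusted p = 7.74e-09). Exons of ST7L overlap WNT2B, and since no source used here states whether counting used strand, reads of the pair cannot be separated. Exons of other genes overlap 15 of the 55 members in all, and the same limit holds for each. They are WNT2, WNT2B, WNT4, WNT11, FZD4, FZD6, FZD8, LGR5, RNF43, AXIN2, NKD1, LEF1, TCF7, TCF7L2 and DKK1.

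WNT2, a ligand of lung and liver mesenchyme, was low. It had 0.673, 0.303 and 0.508 CPM in the NKX2-2 WT and 0.782, 2.05 and 1.96 CPM in the KO libraries. The KO libraries were higher by 1.69 ± 0.44 (SE, adjusted p = 0.0106) on the log2 scale, a call that was lost without KO replicate 2 (adjusted p = 0.0637). It was too low to test in the CLEC16A experiment.

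WNT9A and WNT8B fell in both experiments. WNT9A, a ligand of skeletal and liver development, went from 58.6, 58.9 and 54.5 CPM in the NKX2-2 WT to 25.5, 23.4 and 21.3 CPM in the KO libraries. This was the largest fall of any tested member in that experiment (FZD10 and NKD2, too low to test there, had larger ratios of mean CPM), a log2 change of -1.29 ± 0.11 (SE, adjusted p = 2.02e-06). Within the CLEC16A experiment its log2 change was -0.85 ± 0.09 (SE, adjusted p = 6.48e-08), with 71.05 ± 0.674 CPM in the WT and 39.5 ± 5.99 CPM in the KO libraries (SD, n = 3). The test of the difference gave -0.44 ± 0.15 (SE, adjusted p = 0.0248), and that call was lost without any one of 7 libraries: NKX2-2 WT replicate 1 or 2, NKX2-2 KO replicate 2 or 3, CLEC16A WT replicate 3, or CLEC16A KO replicate 1 or 2 (adjusted p from 0.0514 to 0.0820).

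WNT8B is a ligand of the embryonic forebrain. Its promoter is shown as that of the highest-ranked member of the CLEC16A experiment with a searched word in its window: chr10:100462859-100463008 in GRCh38.p14, the 150 bases before the RefSeq start on the plus strand, with the NKX2 word in capitals.

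WNT8B: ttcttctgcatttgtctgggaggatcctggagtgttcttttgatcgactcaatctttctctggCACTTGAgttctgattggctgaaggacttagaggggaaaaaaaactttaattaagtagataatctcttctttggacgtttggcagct

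The word starts 87 bases before the start, on the minus strand of the gene. WNT8B was at 33.9, 33.8 and 33.3 CPM in the CLEC16A WT and at 15.8, 12.1 and 11.8 CPM in the KO libraries. It fell in all 3, with a log2 change of -1.35 ± 0.11 (SE, adjusted p = 5.55e-10). In the NKX2-2 libraries it had 18.6 ± 2.01 CPM in the WT and 13.6 ± 1.46 CPM in the KO libraries, and the fall of 0.45 ± 0.14 (adjusted p = 0.0218) was lost without WT replicate 1 (adjusted p = 0.0912), WT replicate 2 (adjusted p = 0.0660) or KO replicate 3 (adjusted p = 0.0698). The difference between the effects was 0.90 ± 0.18 (SE, adjusted p = 2.99e-04).

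WNT10A and WNT10B, paralogs that act mostly through beta-catenin, moved apart in the CLEC16A experiment. WNT10A had 0.574, 0.966 and 0.577 CPM in the WT and 2.17, 2.33 and 2.28 CPM in the KO libraries. It rose by 1.68 ± 0.32 (SE, adjusted p = 1.40e-04) on the log2 scale. WNT10B had 1.18, 0.905 and 1.09 CPM in the WT and 0.388, 0.186 and 0.835 CPM in the KO libraries. It fell, a log2 change of -1.17 ± 0.47 (SE, adjusted p = 0.0484), close to the threshold: without WT replicate 1, 2 or 3 or KO replicate 1 or 2 the call was lost (adjusted p from 0.0671 to 0.195), and without KO replicate 3 the log2 fold change was -1.87. In the NKX2-2 experiment WNT10B was at 0.336, 0.354 and 0.339 CPM in the WT and at 0.903, 0.550 and 0.808 CPM in the KO libraries. The 3 KO libraries were higher, but the log2 fold change of 1.11 did not pass the test (adjusted p = 0.0663). The difference between the effects passed, being 2.29 ± 0.70 (SE, adjusted p = 0.0126).

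Of the other tested ligands, WNT3, a canonical ligand, rose in the CLEC16A KO from 5.23 ± 0.961 to 7.78 ± 0.559 CPM (SD, n = 3), a log2 change of 0.57 ± 0.17 (SE, adjusted p = 0.00660). Without WT replicate 1 that call was lost (adjusted p = 0.0503). WNT4, a ligand of kidney and gonad development, fell in the NKX2-2 KO with a log2 change of -0.47 ± 0.16 (SE, adjusted p = 0.0349), and lost its call without WT replicate 1, 2 or 3 or KO replicate 2 or 3 (adjusted p from 0.0664 to 0.109). WNT6, WNT7B and WNT9B did not pass the test where they were tested. Relative to its TPM, WNT3 got at least 4 times lower counts in the NKX2-2 than in the CLEC16A table, so how little of it the NKX2-2 counts hold is uncertain.

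**Figure D3:**
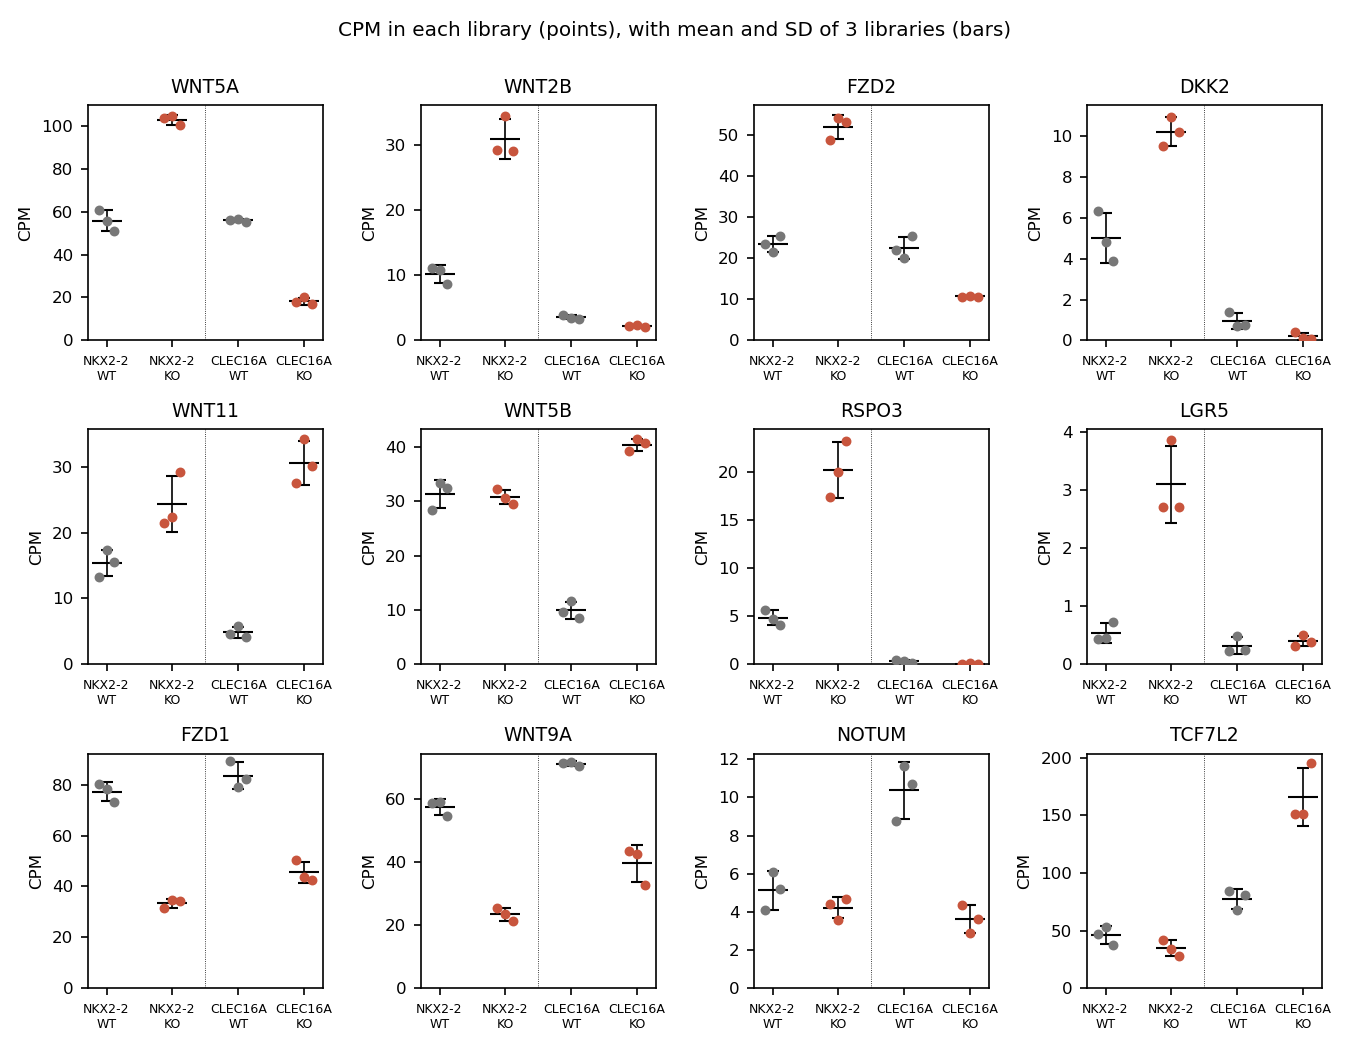
CPM (y axis, from 0) of 12 Wnt genes in each library: grey points are WT and red points KO libraries of the NKX2-2 and the CLEC16A experiment, and bars give the mean and SD of 3. WNT5A, WNT2B, FZD2 and DKK2 are higher in the NKX2-2 KO and lower in the CLEC16A KO; WNT11 is higher in both, and FZD1 and WNT9A are lower in both.

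Among the Frizzled receptors, 5 of 9 tested rose and 3 fell in the NKX2-2 KO, and 4 of 10 rose and 5 fell in the CLEC16A KO. With FZD2, FZD3, FZD5, FZD6 and FZD8, 5 receptors were called in opposite directions. FZD1 fell in both experiments and FZD4 rose in both. Frizzled genes are paralogs, and how the authors treated reads that fit more than 1 place is not given in the sources used here.

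FZD2 (chr17:44557459-44559570, plus strand), a receptor that can bind WNT5A, was at 23.4, 21.5 and 25.4 CPM in the NKX2-2 WT and at 48.6, 54.03 and 53.1 CPM in the KO libraries. All KO libraries were higher, by 1.15 ± 0.11 (SE, adjusted p = 5.94e-06) on the log2 scale. In the CLEC16A libraries FZD2 was at 22.03, 20.04 and 25.3 CPM in the WT and at 10.6, 10.8 and 10.5 CPM in the KO libraries. All KO libraries were lower there, a log2 change of -1.07 ± 0.11 (SE, adjusted p = 6.02e-08), and the difference between the effects was 2.23 ± 0.15 (SE, adjusted p = 9.89e-11). FZD2 thus had the same signs as WNT5A in both experiments.

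FZD1, closely related to FZD2 and FZD7, went from 80.3, 78.3 and 73.1 CPM in the NKX2-2 WT to 31.4, 34.6 and 34.3 CPM in the KO libraries. It fell in all 3, a log2 change of -1.21 ± 0.11 (SE, adjusted p = 1.91e-06). In the CLEC16A experiment it went from 83.5 ± 5.28 to 45.5 ± 4.24 CPM (SD, n = 3), a log2 change of -0.88 ± 0.08 (SE, adjusted p = 3.75e-09). The difference between both falls, -0.32 ± 0.13 (SE, adjusted p = 0.0573), did not pass the test, but passed it without NKX2-2 WT replicate 3, CLEC16A WT replicate 1 or CLEC16A KO replicate 3 (adjusted p from 0.0368 to 0.0488). FZD7 had 95.4, 115 and 90.4 CPM in the CLEC16A WT and 161, 151 and 193 CPM in the KO libraries. It rose by 0.75 ± 0.10 (SE, adjusted p = 1.98e-05) on the log2 scale. Within the NKX2-2 experiment FZD7 had 67.1, 82.6 and 65.3 CPM in the WT and 54.7, 64.7 and 52.8 CPM in the KO libraries, a log2 fold change of -0.32 that did not pass the test (adjusted p = 0.0653). FZD7 was called lower there by DESeq2 (adjusted p = 0.0426), without a count filter (0.0222) and without WT replicate 3 (0.0427). The effects on FZD7 differed by -1.06 ± 0.17 (SE, adjusted p = 2.08e-05).

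FZD5, the most abundant Frizzled gene here, was at 190.3, 192 and 157 CPM in the NKX2-2 WT and at 145, 119 and 98.5 CPM in the KO libraries. It fell by 0.57 ± 0.14 on the log2 scale (adjusted p = 0.00612). Within the CLEC16A experiment it was at 303, 295 and 296 CPM in the WT and at 373, 369.9 and 371 CPM in the KO libraries. It rose there by 0.32 ± 0.06 (SE, adjusted p = 1.08e-04), and the effects differed by -0.88 ± 0.15 (SE, adjusted p = 7.27e-05). FZD8, the close paralog of FZD5, had the same signs: 24.1, 24.4 and 24.8 CPM in the NKX2-2 WT and 14.2, 17.96 and 14.4 CPM in the KO libraries, against 19.4, 20.1 and 19.3 CPM in the CLEC16A WT and 29.9, 37.8 and 30.2 CPM in the KO libraries. The log2 fold changes were -0.65 ± 0.13 and 0.74 ± 0.10 (SE), with adjusted p of 0.00145 and 1.94e-06. The CLEC16A table gives FZD8 another picture in TPM. There the KO libraries had 0, 0 and 1.77 TPM and the WT libraries 1.29, 0 and 0 TPM, in spite of the counts, and on the TPM scale the CLEC16A call and the difference of -1.38 ± 0.17 were lost.

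FZD3 and FZD6, receptors of the planar polarity branch, moved alike and by less. FZD3 was at 56.4, 54.1 and 48.2 CPM in the NKX2-2 WT and 65.5, 68.5 and 66.99 CPM in the KO libraries, and at 83.6, 93.5 and 77.1 CPM in the CLEC16A WT and 57.4, 57.8 and 61.99 CPM in the KO libraries. It rose by 0.34 ± 0.10 (SE, adjusted p = 0.0233) in the first and fell with a log2 change of -0.52 ± 0.08 (SE, adjusted p = 5.58e-06) in the second. FZD6 was at 36.4, 36.2 and 35.7 CPM in the NKX2-2 WT and 38.1, 55.1 and 49.04 CPM in the KO libraries, and at 40.3, 38.6 and 37.6 CPM in the CLEC16A WT and 33.1, 32.7 and 34.4 CPM in the KO libraries. Its log2 fold changes were 0.39 ± 0.13 (SE, adjusted p = 0.0378) and -0.22 ± 0.08 (SE, adjusted p = 0.0294). The differences between the effects were 0.87 ± 0.13 (SE, adjusted p = 1.07e-05) for FZD3 and 0.62 ± 0.15 (SE, adjusted p = 0.00255) for FZD6.

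The single effects on these receptors depend on the libraries. The FZD3 call in the NKX2-2 experiment was lost without WT replicate 1, 2 or 3 or KO replicate 2 (adjusted p from 0.0546 to 0.0922). The FZD6 call there was lost without WT replicate 1, 2 or 3 or KO replicate 2 or 3 (adjusted p from 0.0598 to 0.203). In the CLEC16A libraries the FZD6 call was lost without WT replicate 1 or KO replicate 1 or 2 (adjusted p from 0.0791 to 0.118). The differences for FZD3 and FZD6 passed the threshold whichever 1 library was left out.

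FZD4, the receptor of Norrin as well as of Wnt ligands, rose in both experiments, with log2 changes of 0.86 ± 0.13 (SE, adjusted p = 1.77e-04) and 0.43 ± 0.12 (SE, adjusted p = 0.00496). Its CLEC16A effect fell to 0.28 without WT replicate 3 and did not pass then (adjusted p = 0.0592), and exons of PRSS23 overlap it. FZD10 was low: it had 1.09, 1.15 and 1.22 CPM in the CLEC16A WT and 0.323, 0.621 and 0.321 CPM in the KO libraries. It fell there with a log2 change of -1.44 ± 0.42 (SE, adjusted p = 0.00816). In the NKX2-2 libraries, where it was too low to test, it had 1.10, 0.404 and 0.621 CPM in the WT and 0.120, 0.0500 and 0.115 CPM in the KO libraries. FZD9 rose in the NKX2-2 KO from 1.87 ± 0.498 to 3.36 ± 0.408 CPM (SD, n = 3), a log2 change of 0.85 ± 0.26 (SE, adjusted p = 0.0221), a call lost without WT replicate 1 or KO replicate 2 or 3 (adjusted p from 0.0538 to 0.114).

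In the R-spondin arm, the genes that rose in the NKX2-2 KO, RSPO1, RSPO3 and LGR5, had the 3 largest rises among the members tested in that experiment. WNT10A, too low to test there, had a larger ratio of mean CPM than RSPO3. WNT7A, also too low to test, had 0 counts in the NKX2-2 WT libraries and 3, 0 and 4 counts in the KO libraries. Of 6 tested genes of this arm 3 rose and 1 fell in the NKX2-2 KO, and of 4 tested in the CLEC16A experiment 1 rose and 1 fell.

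RSPO3 (chr6:127118604-127197765, plus strand), an R-spondin of stromal cells, had 5.67, 4.70 and 4.12 CPM in the NKX2-2 WT and 17.4, 19.96 and 23.2 CPM in the KO libraries. Every KO library was above every WT library, 4.17-fold in the fit (log2 change 2.06 ± 0.17 SE, adjusted p = 9.65e-07). In the CLEC16A experiment RSPO3 had 0.459, 0.362 and 0.182 CPM in the WT and 0, 0.186 and 0 CPM in the KO libraries, too little to test within it. The difference between the effects, which RSPO3 entered through its NKX2-2 counts, was 4.38 ± 0.69 (SE, edgeR adjusted p = 2.50e-05). This was the largest called difference of any member, but its CLEC16A side rests on few counts. Without CLEC16A KO replicate 2 it was 8.12. RSPO1 had 0.192, 0.202 and 0.0564 CPM in the NKX2-2 WT and 0.903, 0.900 and 1.96 CPM in the KO libraries. Though low, it had the largest log2 fold change of any tested member there, a log2 change of 2.97 ± 0.56 (SE, adjusted p = 0.00109). RSPO1 was, in the CLEC16A libraries, at 0 counts in all but WT replicate 2.

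LGR5, an R-spondin receptor that marks stem cells of the intestine, had 0.432, 0.455 and 0.734 CPM in the NKX2-2 WT and 2.71, 3.85 and 2.71 CPM in the KO libraries. It rose by 2.52 ± 0.32 (SE, adjusted p = 5.22e-05) on the log2 scale. Within the CLEC16A experiment it had 0.229, 0.483 and 0.243 CPM in the WT and 0.323, 0.497 and 0.385 CPM in the KO libraries, and did not pass the test (log2 change 0.34 ± 0.56 SE, adjusted p = 0.664). The effects on LGR5 differed by 2.19 ± 0.59 (SE, adjusted p = 0.00528), a call that was not kept on the TPM scale. LGR4, its abundant paralog, had 142, 143 and 125 CPM in the NKX2-2 WT and 126, 159.6 and 141 CPM in the KO libraries, and the groups overlapped (log2 change 0.06 ± 0.11 SE, adjusted p = 0.711). In the CLEC16A libraries LGR4 was at 120.1, 129.5 and 124 CPM in the WT and at 160.5, 152 and 183 CPM in the KO libraries. It rose there by 0.41 ± 0.07 (SE, adjusted p = 4.52e-05), and the difference between the effects did not pass the test (adjusted p = 0.0536). It passed without NKX2-2 WT replicate 3, NKX2-2 KO replicate 2 or CLEC16A KO replicate 2 (adjusted p from 0.0196 to 0.0389).

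Of the ubiquitin ligases, RNF43 fell in both experiments. In the NKX2-2 experiment it went from 4.81 ± 0.509 to 2.86 ± 0.326 CPM (SD, n = 3), a log2 change of -0.75 ± 0.20 (SE, adjusted p = 0.0107), and in the CLEC16A experiment from 7.00 ± 0.545 to 5.05 ± 0.570 CPM, a log2 change of -0.47 ± 0.16 (SE, adjusted p = 0.0215). The first call was lost without WT replicate 1 (adjusted p = 0.0516), and the second without WT replicate 2 or 3 or KO replicate 2 or 3 (adjusted p from 0.0570 to 0.0696) and on both TPM scales. Exons of SUPT4H1 and of antisense genes overlap RNF43. ZNRF3 passed in neither experiment, with log2 fold changes of -0.30 ± 0.20 and -0.22 ± 0.10 (SE). With upper-quartile scaling it was called lower in the CLEC16A experiment (adjusted p = 0.0177).

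Among the secreted antagonists, 3 of 7 tested rose and 2 fell in the NKX2-2 KO, and 1 of 7 rose and 4 fell in the CLEC16A KO. All 7 were called in the test of the difference, 5 with a higher and 2 with a lower effect in the NKX2-2 experiment, where that test called 38.2% of all 20494 genes, 17.8% higher and 20.4% lower.

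DKK1, which blocks the co-receptors LRP5 and LRP6 and is itself a textbook target of beta-catenin, is the highest-ranked NKX2-2 member with a searched word in its promoter. The RefSeq 150 bases before its start, chr10:52314131-52314280 in GRCh38.p14 on the plus strand, hold 2 TCF/LEF words, in capitals, and an exon of the antisense gene PRKG1-AS1 overlaps this window.

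DKK1: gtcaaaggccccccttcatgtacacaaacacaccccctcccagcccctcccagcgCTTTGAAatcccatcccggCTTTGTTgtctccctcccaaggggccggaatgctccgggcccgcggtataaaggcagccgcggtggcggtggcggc

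The words start 95 and 76 bases before the start, both on the plus strand. DKK1 had 1.25, 1.16 and 1.35 CPM in the NKX2-2 WT and 3.01, 3.90 and 5.02 CPM in the KO libraries. It rose in all 3, by 3.16-fold (log2 change 1.66 ± 0.26 SE, adjusted p = 2.83e-04). In the CLEC16A experiment it had 0.717, 0.724 and 1.09 CPM in the WT and 0.970, 0.652 and 1.16 CPM in the KO libraries, which overlapped. The difference between the effects was 1.54 ± 0.44 (SE, adjusted p = 0.00756), a call lost in limma on log2(TPM + 0.1). Reads of PRKG1-AS1, whose exons overlap DKK1, cannot be separated from its own.

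DKK2 (chr4:106921802-107283806, minus strand), which also binds LRP6, had 6.34, 4.80 and 3.89 CPM in the NKX2-2 WT and 9.51, 10.96 and 10.2 CPM in the KO libraries. It rose there by 1.02 ± 0.19 (SE, adjusted p = 9.20e-04). Within the CLEC16A experiment it had 1.38, 0.724 and 0.729 CPM in the WT and 0.388, 0.124 and 0.0642 CPM in the KO libraries, few counts in each. It fell with a log2 change of -2.28 ± 0.58 (SE, adjusted p = 0.00246), and the difference of 3.31 ± 0.50 (SE, adjusted p = 1.43e-05) was the largest among the members called in both experiments. On both TPM scales the CLEC16A call of DKK2 was lost: in limma its log2 change was -0.48 on log2(TPM + 1) (adjusted p = 0.119) and -1.98 on log2(TPM + 0.1) (adjusted p = 0.104). DKK3, a divergent Dickkopf protein, fell in both. It went from 155, 142 and 162 CPM to 114, 117 and 116 CPM in the NKX2-2 experiment and from 139, 144 and 147 CPM to 77.7, 77.98 and 65.6 CPM in the CLEC16A experiment. The log2 fold changes were -0.40 ± 0.10 (SE, adjusted p = 0.00602) and -0.96 ± 0.07 (SE, adjusted p = 2.05e-10), and they differed by 0.57 ± 0.12 (SE, adjusted p = 9.27e-04).

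NOTUM, an enzyme that removes the lipid of Wnt proteins and a textbook beta-catenin target, had 8.75, 11.7 and 10.7 CPM in the CLEC16A WT and 4.36, 2.92 and 3.63 CPM in the KO libraries. It fell in all 3, a log2 change of -1.51 ± 0.17 (SE, adjusted p = 2.00e-07). Within the NKX2-2 experiment its log2 change was -0.28 ± 0.21 (SE, adjusted p = 0.318), with overlapping groups, and the effects differed by 1.24 ± 0.28 (SE, adjusted p = 0.00117). SFRP4, a Wnt-binding antagonist, was low, with 0.172, 0.121 and 0.729 CPM in the CLEC16A WT and 1.62, 1.12 and 1.73 CPM in the KO libraries. WT replicate 3 stood nearest to the KO libraries: the rise was 2.12 ± 0.51 (SE, adjusted p = 0.00163) with it and 3.30 without it. For SFRP4 the difference between the effects, -1.70 ± 0.64 (SE, adjusted p = 0.0411), was -2.87 without that library, and the call was lost without any one of 9 others: NKX2-2 WT replicate 1, 2 or 3, NKX2-2 KO replicate 1 or 2, CLEC16A WT replicate 1 or 2, or CLEC16A KO replicate 1 or 3 (adjusted p from 0.0620 to 0.108).

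The abundant Wnt-binding antagonists SFRP1 and SFRP5 moved in opposite ways within the NKX2-2 experiment. SFRP1 rose from 90.8 ± 3.19 to 179.7 ± 9.78 CPM (SD, n = 3), a log2 change of 0.99 ± 0.10 (SE, adjusted p = 4.91e-06). SFRP5 fell from 34.1 ± 4.11 to 19.2 ± 1.41 CPM, a log2 change of -0.83 ± 0.13 (SE, adjusted p = 2.13e-04). In the CLEC16A libraries SFRP1 did not pass the test (log2 change 0.04 ± 0.10 SE, adjusted p = 0.792), and SFRP5 fell with a log2 change of -0.34 ± 0.08 (SE, adjusted p = 0.00170). The difference for SFRP5, -0.48 ± 0.15 (SE, adjusted p = 0.0152), was lost without NKX2-2 WT replicate 3 (adjusted p = 0.0520).

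Of the intracellular inhibitors, 1 of 3 tested fell in the NKX2-2 KO, and 1 of 4 rose and 2 fell in the CLEC16A KO. AXIN1, the scaffold of the destruction complex, was at 58.05, 68.7 and 60.8 CPM in the NKX2-2 WT and at 40.1, 38.5 and 40.2 CPM in the KO libraries. It fell with a log2 change of -0.66 ± 0.11 (SE, adjusted p = 4.06e-04). In the CLEC16A experiment AXIN1 was at 71.8, 81.1 and 70.02 CPM in the WT and at 95.6, 90.3 and 98.97 CPM in the KO libraries. It rose there by 0.35 ± 0.07 (SE, adjusted p = 2.83e-04), though its TPM of 46.6 ± 5.90 in the WT and 49.5 ± 4.02 in the KO libraries (SD, n = 3) did not pass. The difference between the effects was -1.004 ± 0.13 (SE, adjusted p = 1.56e-06).

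AXIN2, the feedback inhibitor and most used readout of beta-catenin signaling, had 10.04, 11.3 and 10.7 CPM in the CLEC16A WT and 5.69, 7.76 and 4.98 CPM in the KO libraries. It fell in all 3, a log2 change of -0.79 ± 0.16 (SE, adjusted p = 2.99e-04). In the NKX2-2 libraries AXIN2 had 9.04, 7.58 and 6.77 CPM in the WT and 10.4, 7.15 and 8.02 CPM in the KO libraries, which overlapped (log2 change 0.12 ± 0.18 SE, adjusted p = 0.636). The effects differed by 0.93 ± 0.25 (SE, adjusted p = 0.00553). NKD1, a Dishevelled-binding feedback inhibitor, fell in the CLEC16A KO from 6.23 ± 0.809 to 3.42 ± 0.544 CPM (SD, n = 3), a log2 change of -0.86 ± 0.18 (SE, adjusted p = 5.13e-04). That call was lost in limma on log2(TPM + 1), at -0.21 (adjusted p = 0.406), and on log2(TPM + 0.1), at -0.50 (adjusted p = 0.398). NKD2 was too low to test in the NKX2-2 experiment and did not pass in the CLEC16A experiment, and its counts, relative to TPM, were at least 4 times lower in the NKX2-2 table.

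Of the nuclear factors none of 4 tested passed in the NKX2-2 experiment in edgeR with its count filter and all libraries, nor in DESeq2, though 2 of them, LEF1 and TCF7L2, had an unadjusted p under 0.05 in edgeR. TCF7L2 was called lower in edgeR without a count filter (adjusted p = 0.00464), without WT replicate 3 (0.0195) or KO replicate 1 (0.0206), and in limma on both TPM scales. LEF1 was called higher with upper-quartile scaling. In the CLEC16A KO 2 of 3 rose. TCF7L2 (chr10:112950250-113167678, plus strand), the DNA-binding partner of beta-catenin best known for its variants linked to type 2 diabetes, had 84.3, 68.1 and 80.7 CPM in the CLEC16A WT and 151, 151 and 195 CPM in the KO libraries. It rose 2.14-fold, a log2 change of 1.10 ± 0.10 (SE, adjusted p = 6.48e-07). In the NKX2-2 experiment it had 47.4, 53.5 and 37.5 CPM in the WT and 42.2, 34.4 and 28.3 CPM in the KO libraries, which overlapped, with a log2 change of -0.40 ± 0.16 (SE, adjusted p = 0.0722). The effects on TCF7L2 differed by -1.49 ± 0.21 (SE, adjusted p = 1.30e-05). TCF7L1, often a repressor, rose in the CLEC16A KO with a log2 change of 0.33 ± 0.10 (SE, adjusted p = 0.0136). That effect was 0.20 without KO replicate 3 (adjusted p = 0.118) and was lost too without WT replicate 1 (adjusted p = 0.0582). TCF7 and LEF1, known best from lymphocytes, passed in neither experiment where they were tested.

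Across both experiments, 35 members were tested in each and 17 of them, 48.6%, were called in each, where 20.6% of the 16975 genes tested in both were. Of these 17, 6 rose in the NKX2-2 KO and fell in the CLEC16A KO (WNT5A, WNT2B, FZD2, FZD3, FZD6 and DKK2), and 3 did the reverse (FZD5, FZD8 and AXIN1). Another 6 fell in both (WNT8B, WNT9A, FZD1, RNF43, DKK3 and SFRP5), and WNT11 and FZD4 rose in both. Opposite directions were thus called for 9 members, 25.7% of the 35, and for 11.9% of all genes tested in both, and the same direction for 8 members and for 8.72% of those genes. The experiments have no library in common. Tested as such, the difference between the effects was called for 25 of 46 members, 15 higher and 10 lower, which is 54.3%. Of all 20494 genes in that test, 38.2% were called, 17.8% higher and 20.4% lower.

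**Figure D4:**
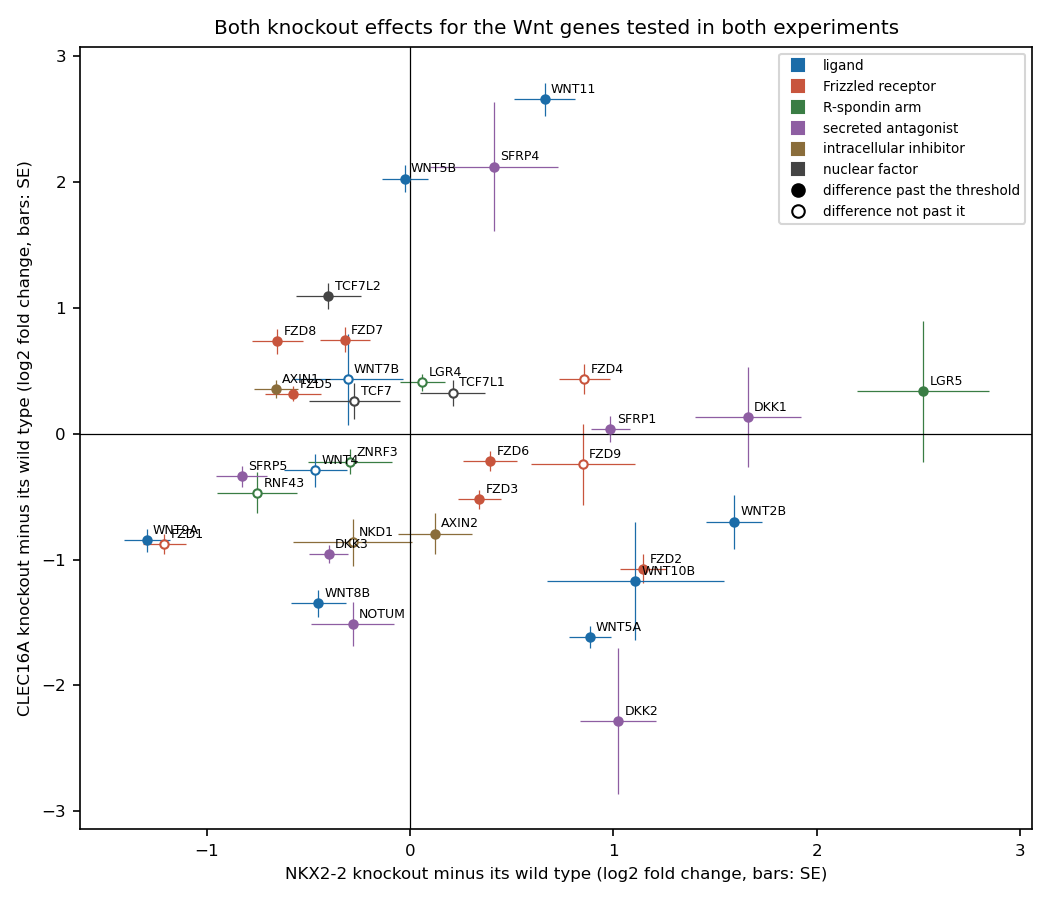
Log2 fold change in the NKX2-2 experiment (x axis) against that in the CLEC16A experiment (y axis) for the 35 Wnt genes tested in both, coloured by role, with SE bars. Filled points passed the test of the difference; 6 of the genes called in both lie at the lower right (among them WNT5A, FZD2 and DKK2), and 3 (FZD5, FZD8 and AXIN1) at the upper left.

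Promoters were found for 37 of the 55 members in the RefSeq table (250 bases before to 50 after the start, GRCh38.p14). They were searched on both strands for 4 TCF/LEF words, which are CTTTGAT with its final base changed in CTTTGAA, and CTTTGTT with its final base changed in CTTTGTA. The NKX2 word searched was TNAAGTG, whose first bases can be shared with the end of CTTTGAA. A TCF/LEF word was in 2 of the 37, DKK1 and WNT3, which is 5.41%, and in 13.9% of all 27195 promoters. The NKX2 word was in 4, AXIN1, WNT2B, WNT3 and WNT8B, which is 10.8%, and in 10.3% of all promoters. A match describes these letters only, and the 3 promoters printed were picked with the values known.

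The other genes of the pathway were taken from 6 lists. Of all tested genes, 33.4% were called in the NKX2-2 experiment (16.6% higher, 16.8% lower). In the CLEC16A experiment 45.0% were (23.7% higher, 21.3% lower), and the counts of each list below stand against these shares. Of 10 co-receptors and secretion genes, 2 rose and 2 fell in each experiment. LRP5, the co-receptor, fell in the NKX2-2 KO from 279 ± 33.6 to 114 ± 19.6 CPM (SD, n = 3), a log2 change of -1.28 ± 0.14 (SE, adjusted p = 1.07e-05). PTK7, a receptor-like pseudokinase, rose in the NKX2-2 KO (log2 change 0.40 ± 0.10 SE, adjusted p = 0.0108) and fell in the CLEC16A KO (log2 change -0.42 ± 0.06 SE, adjusted p = 9.75e-06). GPC3, a glypican that binds Wnt proteins, rose in the CLEC16A KO with a log2 change of 1.17 ± 0.06 (SE, adjusted p = 6.56e-13). Of 15 genes of the Dishevelled and destruction complex list, 1 rose and 2 fell in the NKX2-2 KO, and 1 rose and 3 fell in the CLEC16A KO. The other 12 and 11 were not called, so this list was called less often than all tested genes in both experiments. The one that rose was CTNNB1, which encodes beta-catenin, in both, with log2 changes of 0.44 ± 0.11 (SE, adjusted p = 0.00963) and 0.41 ± 0.06 (SE, adjusted p = 5.72e-06). APC, a scaffold of the destruction complex, fell in the NKX2-2 KO with a log2 change of -1.18 ± 0.12 (SE, adjusted p = 7.58e-06), and its paralog APC2 in the CLEC16A KO with one of -1.09 ± 0.10 (SE, adjusted p = 3.03e-09).

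Of 11 nuclear co-factors, 1 rose and 4 fell in the NKX2-2 KO, and 2 rose and 3 fell in the CLEC16A KO. The TLE corepressors moved apart in the NKX2-2 experiment: TLE4 rose from 18.8 ± 2.13 to 68.1 ± 8.10 CPM (log2 change 1.85 ± 0.13 SE, adjusted p = 3.39e-07), and TLE3 fell from 122 ± 17.9 to 42.8 ± 9.86 CPM (log2 change -1.51 ± 0.16 SE, adjusted p = 1.04e-05). In the CLEC16A KO the co-activator BCL9L rose (log2 change 0.61 ± 0.10 SE, adjusted p = 3.12e-05) and TLE5 fell (log2 change -0.26 ± 0.08 SE, adjusted p = 0.00635). Of 12 other antagonists tested, 7 rose and 3 fell in the NKX2-2 KO, and 4 rose and 6 fell in the CLEC16A KO. FRZB, a Frizzled-related antagonist, rose in the NKX2-2 KO from 27.7 ± 3.82 to 143 ± 9.75 CPM (log2 change 2.37 ± 0.12 SE, adjusted p = 2.68e-08). It also rose in the CLEC16A KO (log2 change 0.62 ± 0.09 SE, adjusted p = 5.87e-06). SHISA2, which holds back Frizzled in the endoplasmic reticulum, fell in both (log2 change -1.10 ± 0.15 SE, adjusted p = 8.03e-05, and log2 change -1.14 ± 0.11 SE, adjusted p = 1.32e-08). TRABD2B, a protease that cleaves Wnt proteins, rose in the CLEC16A KO (log2 change 0.72 ± 0.10 SE, adjusted p = 1.62e-06). It fell in the NKX2-2 KO (log2 change -1.32 ± 0.18 SE, adjusted p = 8.13e-05).

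Of 11 genes of the planar polarity branch, 2 rose and 2 fell in the NKX2-2 KO, and 1 rose and 7 fell in the CLEC16A KO. PRICKLE1 rose in the NKX2-2 KO (log2 change 1.08 ± 0.18 SE, adjusted p = 3.97e-04), and PRICKLE3 fell in it (log2 change -0.81 ± 0.18 SE, adjusted p = 0.00410) and rose in the CLEC16A KO (log2 change 0.47 ± 0.14 SE, adjusted p = 0.00755). The cadherin CELSR2 fell in the CLEC16A KO from 122 ± 9.72 to 63.1 ± 3.66 CPM (log2 change -0.95 ± 0.07 SE, adjusted p = 2.58e-10). Of textbook beta-catenin targets that are no members, 6 of 13 rose and 3 fell in the NKX2-2 KO, and 8 of 14 rose and 4 fell in the CLEC16A KO. In the NKX2-2 KO, BMP4, a ligand of the BMP pathway, rose (log2 change 1.78 ± 0.10 SE, adjusted p = 6.32e-08), and ASCL2, a factor of intestinal stem cells, fell from 21.03 ± 4.77 to 2.27 ± 0.336 CPM (log2 change -3.21 ± 0.20 SE, adjusted p = 1.18e-07). In the CLEC16A KO, CCND1, a cyclin of the cell cycle, rose from 156 ± 2.12 to 327 ± 14.4 CPM (log2 change 1.07 ± 0.06 SE, adjusted p = 2.57e-12), while SOX4 fell (log2 change -0.40 ± 0.06 SE, adjusted p = 2.19e-05). The median log2 fold change of this list was 0.34 in both experiments.

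Markers of other cells moved with both knockouts, and in bulk RNA fewer cells of a type and less RNA per cell cannot be told apart. Of 12 mesenchyme markers, 11 rose and none fell in the NKX2-2 KO, where their summed level was 2338 to 2639 CPM in the WT and 6041 to 6680 CPM in the KO libraries. Within the CLEC16A experiment none of 11 tested rose and 8 fell, and the sum was 160.3 to 171 CPM in the WT and 47.03 to 52.3 CPM in the KO libraries. Of the members called in both experiments, WNT5A, WNT2B, FZD2, FZD3, FZD6 and DKK2 had these signs. FZD5, FZD8 and AXIN1 had the reverse signs. WNT11 and FZD4 rose in both, and WNT8B, WNT9A, FZD1, RNF43, DKK3 and SFRP5 fell in both. RSPO1, RSPO3 and WNT2, too low to test in the CLEC16A experiment, rose in the NKX2-2 KO. The summed endothelial and neural markers also rose in the NKX2-2 KO and fell in the CLEC16A KO. Of 8 endothelial markers, 5 of 7 tested rose and 1 fell in the NKX2-2 KO (23.4 to 28.7 against 70.5 to 78.5 CPM), and 1 of 5 rose and 3 fell in the CLEC16A KO (22.8 to 23.96 against 11.1 to 13.9 CPM, with ERG at 0 in the WT libraries). Of 8 neural markers, 3 of 6 tested rose in the NKX2-2 KO (563 to 636 against 715 to 859 CPM) and 6 of 7 fell in the CLEC16A KO (522 to 582 against 231 to 264 CPM, with SOX10 at 0 in the KO libraries).

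Of 9 intestinal markers, 1 of 7 tested rose and 4 fell in the NKX2-2 KO (1823 to 1941 against 1403 to 1465 CPM), and 8 rose and 1 fell in the CLEC16A KO (967 to 999.7 against 4214 to 5174 CPM). Of 8 liver markers, 3 rose and 2 fell in the NKX2-2 KO (9823 to 11420 against 9951 to 12280 CPM), and 6 rose in the CLEC16A KO (6357 to 6658 against 16270 to 17920 CPM). Of 12 islet endocrine markers, those of the labelled cell type, none of them at 0 in any group, 2 rose and 9 fell in the NKX2-2 KO (5269 to 5864 against 2009 to 2184 CPM), and 1 rose and 11 fell in the CLEC16A KO (29200 to 32180 against 15750 to 17980 CPM). Of the progenitor and duct markers, 2 of 9 tested rose and 5 fell in the NKX2-2 KO (1038 to 1107 against 773 to 862 CPM), and 7 rose and 2 fell in the CLEC16A KO (1179 to 1217 against 1223 to 1269 CPM). Of 8 cell cycle genes, 1 rose and 1 fell in the first (385 to 402 against 346 to 484 CPM), and 4 rose in the second (394 to 405 against 458 to 493 CPM). The part of these markers in the changes of the Wnt genes was not tested.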

How the data were processed

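The authors deposited, for each experiment, raw counts per Ensembl gene and TPM (abundances per length). The submitters' processing notes name the build hg38, HISAT2 2.2.1, fastp 0.22.0 and StringTie 2.1.7. The counting program, its annotation and its strand setting were not given in the sources used here. From the deposited counts, edgeR 4.0.16 in R 4.3.3 (quasi-likelihood F test, robust, TMM, filterByExpr) was fitted to all genes of each experiment, and to all 12 libraries for the difference of effects, with Benjamini-Hochberg adjustment over all genes tested and a threshold of 0.05. SE is the size of the log2 fold change divided by the root of F. Pseudoautosomal genes are listed with a Y copy, and these 45 rows were dropped. Coordinates come from GENCODE 29 (GRCh38), matched by gene ID. The fits were tested on simulated data. Depth (library totals) limits members under about 1 CPM.

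Groups and replicate numbers came from the sample titles. Members and lists were chosen with earlier results of these data known. Values in every library are given for the 10 members per experiment with the largest absolute log2 fold change among those called, without overlap and with 1 CPM or more as mean of the higher group; for the member with the highest mean TPM of each role; and for members called in opposite directions, or with opposite signs and a called difference. Of each other list, the called gene with the smallest p per direction and experiment is named. The alternatives tried were upper-quartile and RLE scaling, DESeq2 1.42.0, no count filter or a mean of at least 1 CPM, a replicate block, no robust step, limma 3.58.1 on log2(TPM + 1) and log2(TPM + 0.1) with TPM of at least 0.5, one fit of all libraries, each library left out and, chosen after seeing the data, CLEC16A counts halved.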

Additional observations from a re-analysis of the deposited data

Results flagged for a closer look

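The 14 Wnt genes whose knockout effects had opposite signs and differed between the experiments in the interaction test of edgeR (adjusted p under 0.05) are given with the NKX2-2 effect minus the CLEC16A effect, on the log2 scale. The ligands with a higher effect in the NKX2-2 experiment were WNT5A (2.51), WNT2B (2.30) and WNT10B (2.29), and WNT5B (-2.04) had the reverse sign. Of the receptors, FZD2 (2.23), FZD3 (0.87) and FZD6 (0.62) had a higher effect in the NKX2-2 experiment, and FZD5 (-0.88), FZD7 (-1.06) and FZD8 (-1.38) a lower one. The antagonist DKK2 (3.31) and the feedback inhibitor AXIN2 (0.93) were on the first side, and AXIN1 (-1.004) and TCF7L2 (-1.49) on the other. WNT5B, WNT10B, FZD7, AXIN2 and TCF7L2 were called in the CLEC16A experiment and not in the NKX2-2 experiment. Apart from leaving out each library in turn, groups of 3 libraries were not searched for single outlying libraries.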

How the results depend on the processing

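The number of Wnt genes called was 25 in the NKX2-2 experiment and ran from 20 to 28 over the alternatives, with 20 to 27 when 1 library was left out (12 to 15 higher, 7 to 12 lower). It was 30 in the CLEC16A experiment and ran from 20 to 31, with 26 to 29 when 1 library was left out (12 to 13 higher, 14 to 16 lower). For the difference it was 25 and ran from 20 to 29, with 23 to 27 when 1 library was left out. The count of higher genes in the CLEC16A experiment moved by over 1.5 times in limma on log2(TPM + 1) and on log2(TPM + 0.1), from 13 to 8. There the calls of AXIN1, FZD4, FZD8, TCF7L1 and WNT3 (higher) and of DKK2, FZD10, NKD1, RNF43, WNT10B and WNT2B (lower) were lost, and the cause was not tested. Of the called genes, 18 of 25, 18 of 30 and 19 of 25 (difference) were called under every alternative that tested them, and none reversed. RSPO1, among the 18 of the NKX2-2 experiment, was below the TPM minimum of both limma fits and so was not tested in them. The one value that reversed was the difference for WNT10A, which was not called: 0.45 in edgeR and -0.54 (adjusted p = 0.0422) in limma on log2(TPM + 1). On these scales the NKX2-2 calls of FZD3, FZD6 and WNT4 and the called differences for FZD8, LGR5, SFRP5 and WNT9A were lost too, and on log2(TPM + 0.1) that for DKK1. Upper-quartile scaling ended the NKX2-2 call of WNT4, the CLEC16A call of TCF7L1 and the differences for SFRP4, SFRP5 and WNT9A. Without a count filter the NKX2-2 call of FZD3 was lost, without the robust step the CLEC16A call of WNT10B, and in one fit of all libraries the CLEC16A calls of FZD6 and TCF7L1. DESeq2 ended the NKX2-2 calls of FZD6, FZD9 and WNT4, the CLEC16A call of WNT10B and the called difference for SFRP4.

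In the NKX2-2 experiment, deviations from the group mean correlated at 0.11, 0.03 and 0.32 between same-numbered WT and KO libraries. Between differently numbered ones they correlated at -0.24 to 0.18. In the CLEC16A experiment the values were 0.01, 0.01 and -0.03 against -0.04 to 0.03. Whether replicate numbers pair the libraries was not tested, and the main fits did not use pairs. With a replicate block, 28 members were called in the NKX2-2 experiment (15 higher, 13 lower), 30 in the CLEC16A experiment and 29 for the difference. The calls gained were FZD7 (adjusted p = 0.00194), TCF7L2 (0.000941) and ZNRF3 (0.0411) in the NKX2-2 experiment, and FZD1, FZD4, FZD9 and LGR4 for the difference. Other calls gained were WNT4 in the CLEC16A experiment, with upper-quartile scaling and on both TPM scales, and the differences for FZD4 (upper-quartile scaling), FZD9 (RLE and upper-quartile scaling, both other count filters, CLEC16A counts halved) and RSPO1 (DESeq2). Without 1 library the differences for FZD4, FZD9, RSPO1, TCF7 and WNT2 and the CLEC16A effect on WNT9B were called too. Halving the CLEC16A counts, chosen after seeing the data, left 30 called there and 26 for the difference. Depth limits the genes under about 1 CPM.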
